A study of Drosophila melanogaster with 12 samples.

Results

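The genes described here encode the subunits of the proteasome of Drosophila melanogaster. They were taken from a table of read counts in fly heads as every row whose symbol begins with Prosalpha, Prosbeta, or Rpn or Rpt followed by a digit. This rule found 47 of the 15423 rows. Of these, 32 are the subunits used throughout the body and 15 are paralogs whose symbols end in T or R, with or without a number, which were kept apart as testis-type paralogs. All 32 body subunits passed the filter on low counts, whereas only 1 of the 15 paralogs, Rpn13R, did, so 33 of the 47 rows were tested. The rule used names only and no measured value.

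The proteasome is the large protease that degrades proteins tagged with ubiquitin. Its barrel, the 20S core, is built of stacked rings: the outer alpha rings gate the entrance and the inner beta rings hold the cutting sites. The 19S cap that sits on the barrel has a base, where a ring of ATPases (Rpt) unfolds the substrate and non-ATPase subunits (Rpn) bind ubiquitin, and a lid, which removes the ubiquitin chain. Flies carry a further set of proteasome genes that are used mainly in the male germ line.

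The study compared heads of wild type (WT) flies and of ADAR hypomorph flies, which carry a transposon within an intron of Adar and make less of this RNA editing enzyme, kept at 18°C or at 29°C. The methods name the allele Adar5G1 beside the hypomorph strain, and the labels give no sex and no further allele for either strain. Flies were collected 3 to 6 days after they emerged, and each of the 4 groups had 3 libraries of 3' RNA-seq, which counts reads at the 3' ends of mRNAs. The labels number the replicates of each group 1 to 3. Among the counts of each group, 2 libraries are named replicate 2 and replicate 3 and the remaining one carries no number. Values by library are always given in the order unnumbered, replicate 2, replicate 3. The labels do not say that the libraries of a group came from separate cultures, so the p-values measure only the spread between these libraries, which may be technical.

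Depth ran from 4409119 to 8806472 counts per library, and each body subunit had at least 136 counts in every library. Levels are given as CPM (counts scaled to a common library total, with TMM factors), as mean ± SD over n = 3 libraries where averaged. Differences are log2 fold changes with their standard error (SE) from edgeR's quasi-likelihood fit to all 12 libraries, and a gene was called at a Benjamini-Hochberg adjusted p under 0.05 over the 9553 genes tested. Adar itself was at 35.2 to 40.9 CPM in WT and 22.5 to 37.7 CPM in the hypomorph at 18°C, where the groups overlapped, and at 37.3 to 42.3 against 21.7 to 24.6 CPM at 29°C, where they did not. Its log2 fold change of the hypomorph over WT was −0.41 (adjusted p = 0.0424) at 18°C and −0.77 (adjusted p = 0.000859) at 29°C. The call at 18°C was lost when any 1 of 8 libraries was left out.

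Markers of head cell types also differed between the groups. The summed level of 7 photoreceptor markers was 7810 to 13700 CPM in the WT libraries and 28100 to 38000 CPM in those of the hypomorph, with all 7 called higher in the hypomorph at both temperatures. At 18°C, 6 of these 7 were called lower in WT, and in the hypomorph 4 were called lower and 1 higher. Of 6 neuron markers, 3 were called lower at 18°C in WT, in the hypomorph 2 were called lower and 1 higher, and against WT the hypomorph had 3 called higher at 18°C and 1 at 29°C. The 6 fat body markers, whose sum came mainly from the yolk protein genes Yp1, Yp2 and Yp3, summed to 97500 to 106000 CPM in WT and 20900 to 32200 CPM in the hypomorph at 18°C, and to 79700 to 83500 and 44900 to 52000 CPM at 29°C. The yolk protein genes are also markers of females, and all 3 were called lower in the hypomorph at both temperatures. Of the male markers, the dosage compensation RNAs roX1 and roX2, both were called higher in the hypomorph at 18°C and roX2 alone at 29°C. Their summed level was 400 to 621 CPM in WT and 620 to 1150 CPM in the hypomorph at 18°C, and 448 to 572 and 351 to 467 CPM at 29°C. At 18°C, 4 of 5 glial markers were called higher in each strain, and 5 of 5 muscle markers in WT against 1 in the hypomorph. Against WT, the hypomorph had 3 glial markers called higher at 18°C and 2 at 29°C, and 2 muscle markers lower at 18°C and 3 higher at 29°C. Over all genes tested, 17.3% were called higher and 16.1% lower at 18°C in WT, and 16.6% and 15.6% in the hypomorph. For the hypomorph against WT these shares were 11.6% and 14.6% at 18°C, and 8.81% and 10.2% at 29°C. The part of these markers in the results below was not tested. In whole heads, fewer cells of a type and less RNA per cell cannot be told apart.

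In WT heads the subunit mRNAs were higher at 18°C than at 29°C. Of the 32 body subunits, 23 rose at 18°C and none fell, where 17.3% of all genes tested were called higher and 16.1% lower. The median log2 fold change of the 32 was 0.36, that is 1.28-fold, beside −0.01 for all genes tested. The quartiles were 0.27 and 0.47 for the subunits and −0.29 and 0.26 for all genes, which include genes of lower count. The changes were small: they ranged from −0.08 to 0.63, 30 of 32 were above 0 (beside 48.9% of all genes), and none met the study's criterion of a log2 fold change over 1 with an unadjusted p under 0.05, which 7.33% of all genes met. For 24 of the 32, every library at 18°C was above every library at 29°C, beside 22.8% of all genes. The number called rested in part on single libraries, being 9 without WT 18°C replicate 3 and 15 without WT 29°C replicate 3.

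In the ADAR hypomorph the same direction was seen with fewer calls. At 18°C 13 of the 32 subunits rose and none fell, beside 16.6% of all genes called higher and 15.6% lower. All 13 were among the 23 called in WT. The median log2 fold change was 0.23, or 1.17-fold, beside 0.01 for all genes, and 27 of 32 were above 0, beside 51.3% of all genes. None met the study's criterion, beside 6.16% of all genes. For 12 of the 32 the libraries of the 2 temperatures did not overlap, beside 23.3% of all genes. The count called was 8 without hypomorph 18°C replicate 2, 5 without hypomorph 18°C replicate 3, 5 without the unnumbered hypomorph 29°C library and 4 without hypomorph 29°C replicate 3. Scaling by total counts alone gave 24 calls, but it moved the median of all genes to 0.20 as well, and the subunits stood 0.22 above the median of all genes under both scalings. The comparison of the strains' calls is no test of a difference, which is given further on.

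**Figure D1:**
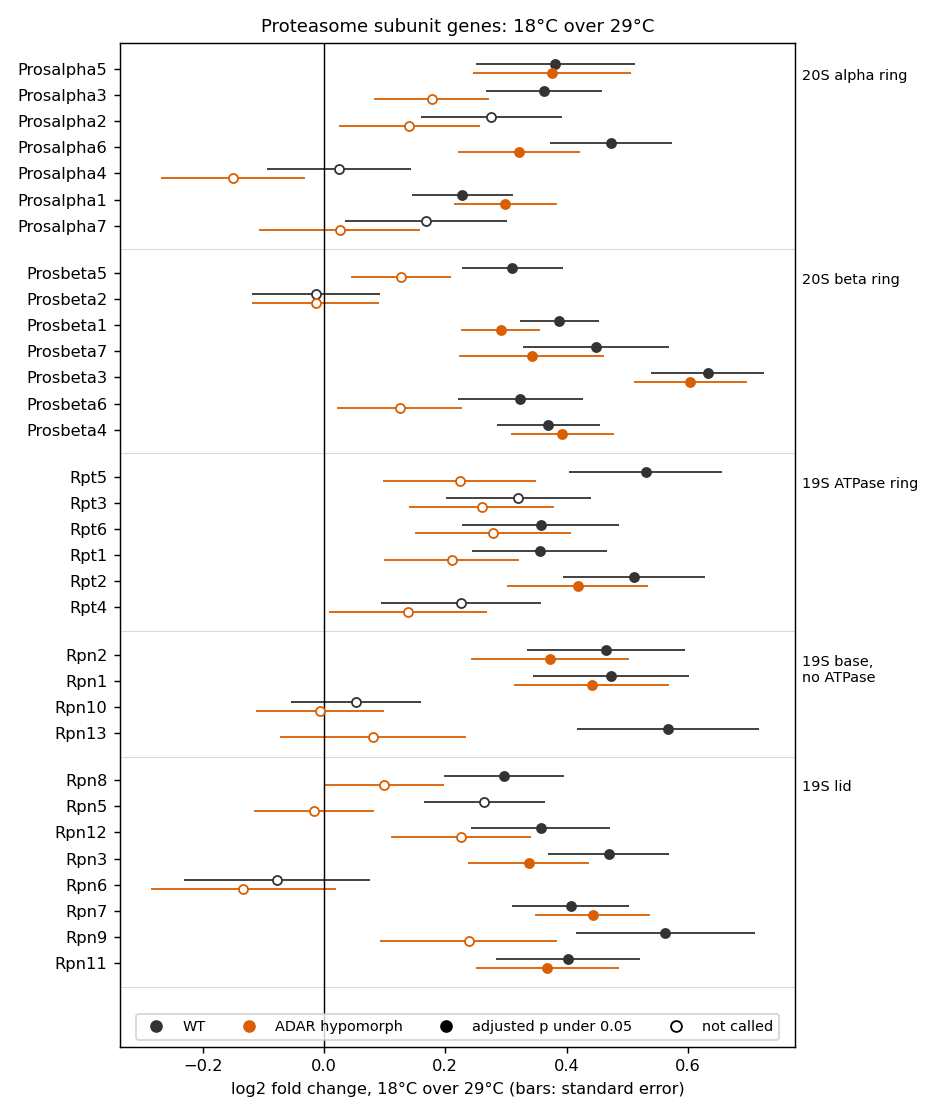
Log2 fold change at 18°C over 29°C of the 32 body subunits, grouped by their place in the proteasome, in WT (black) and in the ADAR hypomorph (orange), with SE bars and filled points for calls. Prosbeta3 is at 0.63 and 0.60 in the 2 strains, while Prosalpha4, Prosbeta2, Rpn10 and Rpn6 lie near or below 0 in both.

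Among the 7 genes of the beta ring, 6 rose at 18°C in WT and 4 in the hypomorph, beside 17.3% and 16.6% of all genes. The 3 catalytic subunits were Prosbeta1, Prosbeta2 and Prosbeta5, which carry the caspase-like, trypsin-like and chymotrypsin-like sites, and they did not move alike. Prosbeta1 was at 160, 169 and 168 CPM in WT at 18°C and at 126, 135 and 120 CPM at 29°C. In the hypomorph it was at 138, 141 and 148 CPM at 18°C and 112, 124 and 113 CPM at 29°C. The groups at the 2 temperatures did not overlap in either strain, and the log2 fold change was 0.39 (SE 0.07, adjusted p = 0.000315) in WT and 0.29 (SE 0.07, adjusted p = 0.00316) in the hypomorph.

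Prosbeta5 was at 140, 126 and 155 CPM in WT at 18°C and at 116, 115 and 109 CPM at 29°C, with no overlap. Its log2 fold change of 0.31 (SE 0.08) was called (adjusted p = 0.00898), but not without WT 18°C replicate 3 (0.24, adjusted p = 0.0566). The hypomorph had 115, 134 and 130 CPM of Prosbeta5 at 18°C and 116, 123 and 109 CPM at 29°C. These overlapped, and the log2 fold change was 0.13 (adjusted p = 0.266).

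Prosbeta2 showed no difference between temperatures beyond the spread of the libraries. In WT it was at 97.6, 99.3 and 136 CPM at 18°C and 114, 111 and 112 CPM at 29°C. Only replicate 3 at 18°C was above the WT libraries at 29°C. The log2 fold change was −0.01 (SE 0.10) in WT and −0.01 (SE 0.10) in the hypomorph, where the 6 libraries lay between 99.8 and 115 CPM.

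Prosbeta3, a structural subunit without a cutting site, had the largest change of all 32 in both strains. It was at 124, 131 and 144 CPM at 18°C and 87.2, 89.0 and 81.5 CPM at 29°C in WT. Hypomorph libraries held it at 129, 113 and 143 CPM at 18°C and 81.0, 93.7 and 78.3 CPM at 29°C. All libraries at 18°C were above all at 29°C, and the log2 fold change was 0.63 (SE 0.09, adjusted p = 9.31e-05), or 1.55-fold, in WT and 0.60 (SE 0.09, adjusted p = 0.000135), or 1.52-fold, in the hypomorph. Both calls stood when any 1 library was left out. The other structural beta genes Prosbeta4 (0.37 and 0.39) and Prosbeta7 (0.45 and 0.34) rose in both strains, and Prosbeta6 rose in WT (0.32) with a log2 fold change of 0.12 (adjusted p = 0.385) in the hypomorph.

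Of the 7 alpha ring genes, 4 rose at 18°C in WT and 3 of these in the hypomorph, beside 17.3% and 16.6% of all genes. Prosalpha6 was at 87.8, 91.3 and 107 CPM at 18°C and 67.3, 77.3 and 62.1 CPM at 29°C in WT, and at 71.8, 82.7 and 82.2 against 58.2, 68.5 and 63.2 CPM in the hypomorph. The temperatures did not overlap in either strain, and the log2 fold changes were 0.47 (SE 0.10, adjusted p = 0.00194) and 0.32 (SE 0.10, adjusted p = 0.0232). Prosalpha5 rose by 0.38 on the log2 scale in each strain, and Prosalpha3 rose in WT (0.36), with 0.18 (adjusted p = 0.172) in the hypomorph.

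Prosalpha4 stood apart from these, with log2 fold changes of 0.02 (adjusted p = 0.901) in WT and −0.15 (adjusted p = 0.365) in the hypomorph. It was at 84.5, 101 and 119 CPM at 18°C and 109, 92.1 and 99.3 CPM at 29°C in WT, so that the groups overlapped. Prosalpha2 had a log2 fold change of 0.28 in WT (adjusted p = 0.0822) and 0.14 in the hypomorph, and Prosalpha7 had 0.17 and 0.03, none of them called. Prosalpha1, whose level depended mainly on strain, rose by 0.23 in WT (adjusted p = 0.0449) and 0.30 in the hypomorph (adjusted p = 0.0135) on the log2 scale. The call in WT was lost without any 1 of 6 libraries, and that in the hypomorph without hypomorph 18°C replicate 3 or hypomorph 29°C replicate 3.

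The 6 ATPases of the cap base all had log2 fold changes above 0 in both strains, from 0.23 to 0.53 in WT and from 0.14 to 0.42 in the hypomorph. Of these, 4 were called in WT and 1, Rpt2, in the hypomorph, beside 17.3% and 16.6% of all genes called higher. The share in the hypomorph was thus near that of all genes. Rpt2 was at 126, 119 and 164 CPM at 18°C and 103, 94.7 and 90.2 CPM at 29°C in WT. In hypomorph heads it was at 125, 121 and 128 CPM at 18°C and 86.6, 110 and 83.1 CPM at 29°C. Neither strain showed an overlap, and the log2 fold changes were 0.51 (SE 0.12, adjusted p = 0.00335) and 0.42 (SE 0.12, adjusted p = 0.0124).

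Rpt5 rose in WT by 0.53 on the log2 scale (adjusted p = 0.00426), from 47.6, 51.6 and 52.4 CPM at 29°C to 67.8, 68.3 and 82.6 CPM at 18°C. In the hypomorph its libraries at 18°C, at 50.6, 59.2 and 67.2 CPM, overlapped those at 29°C, at 48.8, 60.3 and 42.8 CPM, and the log2 fold change was 0.22 (adjusted p = 0.193). Rpt1 and Rpt6 rose in WT as well (each 0.36), and Rpt3 (0.32, adjusted p = 0.0512) and Rpt4 (0.23, adjusted p = 0.208) did not pass the test.

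The 4 base subunits without ATPase activity are Rpn1 and Rpn2, the scaffolds of the base, and Rpn10 and Rpn13, which bind ubiquitin chains. Rpn1 also holds a site for ubiquitin and shuttle factors. Rpn1 was at 69.8, 72.9 and 92.3 CPM at 18°C and 62.9, 51.9 and 55.1 CPM at 29°C in WT, and at 79.9, 71.3 and 83.2 against 53.9, 68.9 and 49.4 CPM in the hypomorph. No library at 18°C was as low as any at 29°C within its strain, and the log2 fold changes were 0.47 (SE 0.13, adjusted p = 0.0101) and 0.44 (SE 0.13, adjusted p = 0.0149). The call in WT was lost without WT 18°C replicate 3 (adjusted p = 0.0683), and that in the hypomorph without hypomorph 18°C replicate 3, the unnumbered hypomorph 29°C library or hypomorph 29°C replicate 3 (adjusted p = 0.0634 to 0.084). Rpn2 rose in both strains (0.47 and 0.37).

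Of the 2 ubiquitin receptors, Rpn13 was called in WT and Rpn10 in neither strain, and the difference between the genes was not tested. Rpn13 rose at 18°C in WT, from 55.7, 45.4 and 41.3 CPM at 29°C to 57.7, 65.4 and 86.6 CPM with no overlap, a log2 fold change of 0.57 (SE 0.15, adjusted p = 0.00835) that was lost without WT 18°C replicate 3 (0.38, adjusted p = 0.0626). In the hypomorph it was at 36.3, 42.4 and 38.6 CPM at 18°C and 36.1, 43.6 and 31.2 CPM at 29°C, which overlapped (log2 fold change 0.08, adjusted p = 0.728). Rpn10 was at 91.5, 82.5 and 97.9 CPM at 18°C and 83.6, 91.4 and 87.2 CPM at 29°C in WT, and its log2 fold changes were 0.05 (SE 0.11, adjusted p = 0.747) in WT and −0.01 (SE 0.11, adjusted p = 0.972) in the hypomorph.

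In the lid, 6 of 8 genes rose at 18°C in WT and 3 of these in the hypomorph, beside 17.3% and 16.6% of all genes. Rpn11, the deubiquitinase that cuts the chain from the substrate, was at 101, 89.3 and 122 CPM at 18°C and 80.8, 80.0 and 76.2 CPM at 29°C in WT. Hypomorph libraries held it at 88.3, 95 and 107 CPM at 18°C and 77.1, 84.7 and 62.7 CPM at 29°C. The temperatures did not overlap in either strain, with log2 fold changes of 0.40 (SE 0.12, adjusted p = 0.0157) and 0.37 (SE 0.12, adjusted p = 0.0255). The WT call was lost without WT 18°C replicate 3 or WT 29°C replicate 3, and the hypomorph call without hypomorph 18°C replicate 2 or replicate 3, the unnumbered hypomorph 29°C library or hypomorph 29°C replicate 3.

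Rpn7, a structural lid subunit, rose alike in both strains, by 0.41 in WT (adjusted p = 0.0042) and 0.44 in the hypomorph (adjusted p = 0.00222) on the log2 scale, and Rpn3 rose by 0.47 and 0.34. Rpn9 rose in WT by 0.56 (SE 0.15, adjusted p = 0.00811), from 90.0, 72.6 and 82.1 CPM at 29°C to 111, 108 and 141 CPM at 18°C, and the call was narrowly lost without WT 18°C replicate 3 (adjusted p = 0.0539). In the hypomorph Rpn9 was at 97.6, 93.6 and 127 against 85.2, 110 and 74.8 CPM, which overlapped. Rpn6, a lid scaffold that also clamps the core, was the subunit with the lowest change in WT. It was at 29.8, 39.8 and 47 CPM at 18°C and 41.6, 37.7 and 44.7 CPM at 29°C, with log2 fold changes of −0.08 (SE 0.15, adjusted p = 0.741) in WT and −0.13 (SE 0.15, adjusted p = 0.547) in the hypomorph.

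Across all places in the complex, 9 subunits were called in neither strain, namely Prosalpha2, Prosalpha4, Prosalpha7, Prosbeta2, Rpt3, Rpt4, Rpn5, Rpn6 and Rpn10. Rpn5, Rpt3 and Prosalpha2 lay just outside the threshold in WT (adjusted p = 0.0538, 0.0512 and 0.0822), while the other 6 had adjusted p of 0.208 to 0.943 there. Not being called does not show that these genes did not differ.

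In most libraries the subunits lay mainly on one side of their own means, so their calls cannot be taken as independent of each other. The deviations given here include the differences between groups, and no correlation between subunits was computed. For the 31 body subunits without Prosalpha1, the median deviation of log2(CPM + 1) from each gene's mean over the 12 libraries was taken in each library. It was 0.19, 0.13 and 0.41 in WT at 18°C and −0.09, −0.13 and −0.15 in WT at 29°C, which did not overlap. In the hypomorph it was −0.01, 0.05 and 0.19 at 18°C and −0.22, 0.02 and −0.34 at 29°C, so that replicate 2 at 29°C lay within the range of the libraries at 18°C. In WT 18°C replicate 3 all 31 genes were above their own mean, and in hypomorph 29°C replicate 3 none was. The summed level of the 31 genes was 2920, 2950 and 3600 CPM in WT at 18°C and 2560, 2460 and 2440 CPM at 29°C, and 2650, 2750 and 3030 against 2360, 2720 and 2140 CPM in the hypomorph.

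**Figure D2:**
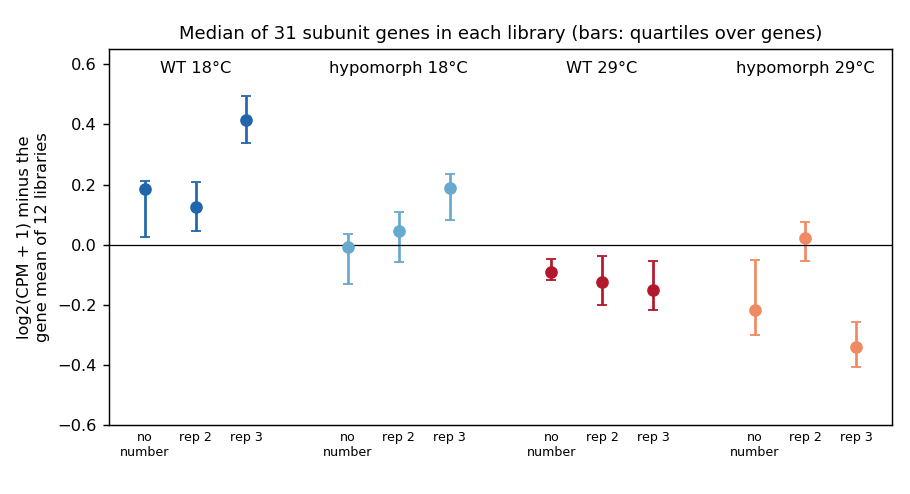
Median over 31 body subunits (without Prosalpha1) of log2(CPM + 1) minus each gene's mean of the 12 libraries, one point per library with quartiles over genes as bars. WT libraries at 18°C (0.13 to 0.41) lie above those at 29°C (−0.15 to −0.09), and hypomorph 29°C replicate 2 (0.02) lies among the hypomorph libraries at 18°C (−0.01 to 0.19).

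Whether the response to temperature differed between strains was tested directly, as the log2 fold change in the hypomorph minus that in WT. No subunit was called by edgeR's quasi-likelihood test or by DESeq2, beside 2.32% of all genes called by edgeR, and 1 of 32 had an unadjusted p under 0.05, beside 13.9% of all genes. That gene was Rpn13, with a difference of −0.49 (SE 0.21, adjusted p = 0.32). Next by p came Rpn5 (−0.28, SE 0.14, adjusted p = 0.393) and Rpt5 (−0.31, SE 0.18, adjusted p = 0.471). The log2 fold change was smaller in the hypomorph for 29 of 32 subunits, as for 47.7% of all genes, and the median difference was −0.10, but it was 0.01 without WT 18°C replicate 3 and −0.03 without hypomorph 29°C replicate 2. For the catalytic subunits the differences were −0.10 (Prosbeta1), −0.00 (Prosbeta2) and −0.18 (Prosbeta5), with SE of 0.09 to 0.15.

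Between the strains, 1 subunit stood far from the others. Prosalpha1, an alpha ring subunit, was at 383, 427 and 490 CPM in WT and 142, 133 and 146 CPM in the hypomorph at 18°C. At 29°C it was at 365, 386 and 359 CPM in WT and 112, 123 and 106 CPM in the hypomorph. Every hypomorph library was below every WT library, with log2 fold changes of −1.63 (SE 0.09, adjusted p = 1.94e-09) at 18°C and −1.70 (SE 0.09, adjusted p = 1.35e-09) at 29°C. In means this was 433 ± 53.5 against 140 ± 6.67 CPM at 18°C (SD, n = 3) and 370 ± 14.3 against 114 ± 8.53 CPM at 29°C, and the fitted level in the hypomorph was 3.10-fold and 3.25-fold lower.

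The Prosalpha1 row held, in every library, the same counts as the row of CG30382, which the RefSeq annotation (Release 6 plus ISO1 MT) names Prosalpha1R and places on the same chromosome arm, separated from Prosalpha1 by CG18853. Of all rows with at least 10 counts, 116 were identical to another row, and Prosalpha1 was the only one of the 47 genes among them. The counts therefore cannot be split between the copies, and it cannot be said which of them was lower. Under the symbol CG30382 this copy was not reached by the name rule, so it is not among the 15 testis-type paralogs. All values given for Prosalpha1, also in the figures, carry this limit.

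The genes on either side of Prosalpha1 were lower in the hypomorph too. In the Ensembl annotation (BDGP6.54) the nearest gene on one side, phr, which encodes a DNA repair photolyase, lies on the opposite strand and its exons overlap those of Prosalpha1. It was at 65 ± 8.43 CPM in WT and 11.3 ± 1.65 CPM in the hypomorph at 18°C, and at 102 ± 5.54 and 12 ± 0.58 CPM at 29°C (SD, n = 3), log2 fold changes of −2.54 and −3.09. CG18853, the nearest on the other side, was at 62.9 ± 7.57 and 12 ± 1.77 CPM at 18°C and 105 ± 6.55 and 12.8 ± 1.36 CPM at 29°C, with log2 fold changes of −2.38 and −3.03. These levels are close to those of phr in every group, and whether the rows share reads was not tested. Further out, cathD was called lower at both temperatures (−0.35 and −0.46), CG12822 was called higher at 18°C (0.23), and 5 more genes were called at neither temperature. CG30377 was called higher at both (1.24 and 2.00), but at low levels. It was at 0.949 CPM in WT and 2.21 CPM in the hypomorph at 18°C, and at 0.575 and 2.39 CPM at 29°C. The study's methods describe a stranded library preparation, but whether the counting used strand is not given in the sources used here. If it did not, reads of Prosalpha1 and phr cannot be told apart where they overlap.

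**Figure D3:**
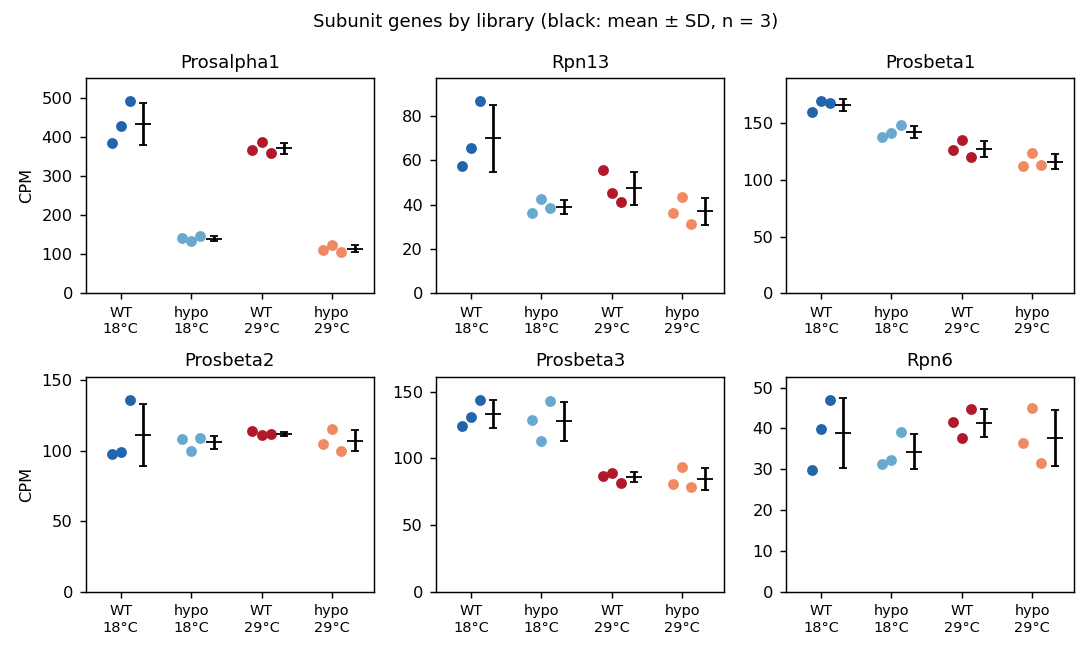
Levels in CPM of 6 subunit genes in the 12 libraries, 3 points per group in the order unnumbered, replicate 2, replicate 3, with the mean ± SD (n = 3) in black and axes that start at 0. Prosalpha1 is at 106 to 146 CPM in all hypomorph libraries and 359 to 490 CPM in all WT libraries, and Prosbeta3 separates by temperature instead.

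Besides Prosalpha1, 2 subunits fell in the hypomorph at 18°C, which makes 3 of 32 lower and none higher, beside 14.6% of all genes called lower and 11.6% higher. Rpn13 was at 69.9 ± 15 CPM in WT and 39.1 ± 3.09 CPM in the hypomorph (SD, n = 3), a log2 fold change of −0.84 (SE 0.15, adjusted p = 0.000657). Its libraries did not overlap, and the call stood with DESeq2, under each other scaling and filter, and without any 1 library. At 29°C Rpn13 had a log2 fold change of −0.35 (SE 0.15, adjusted p = 0.128) and its groups overlapped. Of the 10 genes nearest to Rpn13, AGO1 was called higher at both temperatures (0.38 and 0.29) and RN-tre at 18°C (0.34), and 7 were not called. DJ-1alpha was called lower at 18°C (−1.45), at the low levels of 1.54 CPM in WT and 0.565 CPM in the hypomorph.

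Prosbeta1 was the third, at 160, 169 and 168 CPM in WT and 138, 141 and 148 CPM in the hypomorph at 18°C, a log2 fold change of −0.22 (SE 0.07, adjusted p = 0.0213). The groups did not overlap, but the call was lost without WT 18°C replicate 2 or replicate 3, or without the unnumbered or replicate 2 library of the hypomorph at 18°C (adjusted p = 0.0515 to 0.065). With total counts in place of TMM, which moved the median of all genes to 0.20, the log2 fold change was −0.03 (adjusted p = 0.755). In the 8 libraries that carry a replicate number, the call was lost with and without that number as a block (adjusted p = 0.129 and 0.103). At 29°C the log2 fold change of Prosbeta1 was −0.12 (adjusted p = 0.237).

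The other 29 subunits were not called at 18°C. Their median log2 fold change was −0.15, with 28 of 29 below 0. Over the 32 genes the median was −0.18, beside 0.01 for all genes, and 31 of 32 were below 0, as were 48.6% of all genes. For 9 of the 32 the hypomorph libraries were all below the WT libraries, beside 19.5% of all genes. The median of the 32 was −0.05 without WT 18°C replicate 3, and the number of genes called lower was 5 without the unnumbered WT 18°C library or WT 29°C replicate 2, and 6 without hypomorph 29°C replicate 2. DESeq2 called 9 genes lower. With total counts in place of TMM the median was 0.01, but that scaling moved the median of all genes to 0.20, and the subunits stood 0.19 below it under each scaling.

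Among the other subunits named for their activity, the log2 fold changes at 18°C were −0.08 for Prosbeta2, −0.15 for Prosbeta5, −0.11 for Rpn11, −0.02 for Rpn10 and −0.01 for Rpn1, none of them called. At 29°C only Prosalpha1 was called lower and none higher, beside 10.2% of all genes called lower and 8.81% higher. The hypomorph libraries were all below the WT libraries for 1 of 32 genes, again Prosalpha1, beside 18.4% of all genes. The median was −0.07, 23 of 32 were below 0 beside 50.5% of all genes, and the median was 0.02 without hypomorph 29°C replicate 3 and −0.17 without hypomorph 29°C replicate 2. The 31 subunits without Prosalpha1 ranged from −0.35 (Rpn13) to 0.16 (Rpn5) at 29°C.

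**Figure D4:**
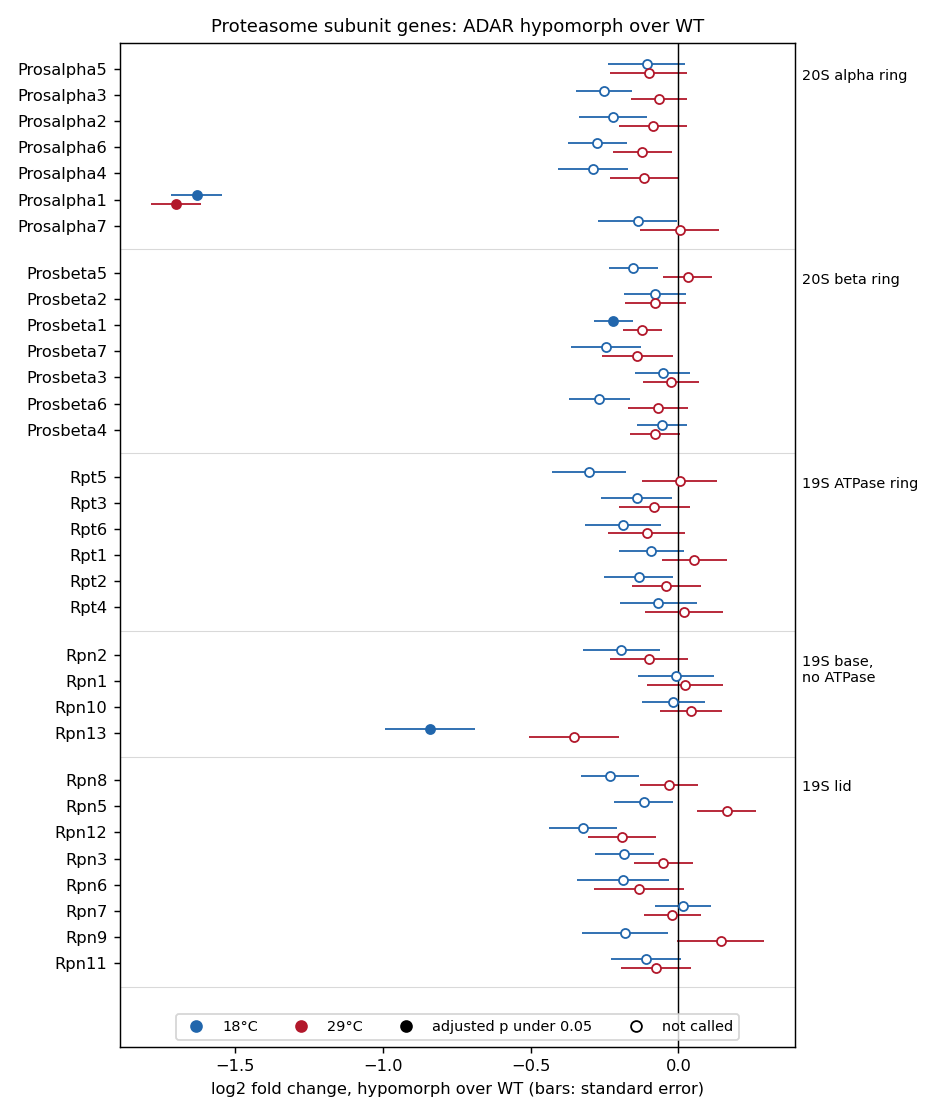
Log2 fold change of the ADAR hypomorph over WT for the 32 body subunits at 18°C (blue) and 29°C (red), with SE bars and filled points for calls. Prosalpha1 is at −1.63 and −1.70, Rpn13 at −0.84 and −0.35, and the other subunits lie between −0.32 and 0.16.

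The 15 testis-type paralogs were close to absent from these heads. Rpn13R was the most counted, with 4 to 14 reads in every library and no call in any of the 5 comparisons. The remaining 14 had 101 reads together in 12 libraries, of which Rpt6R, a paralog of an ATPase, had 37. Prosbeta5R1 had none in any library, where 0 counts allow a level of up to 0.0358 CPM over the 12 libraries together (3 counts, covering counting error only).

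The reads of the 14 paralogs were uneven between libraries. WT 29°C replicate 2 had 33, from 11 of the 14 genes, and the other 11 libraries had 1 to 11 each. All reads of Prosbeta5R2 (5), Rpn12R (4) and Prosbeta4R1 (2) were in that library. Prosbeta5R2 and Prosbeta4R1 are relatives of beta subunits and Rpn12R of a lid subunit. Of 17 testis markers, WT 29°C replicate 2 had 554 reads, against 8 to 42 in each of the other libraries. The meiotic arrest genes aly, can and sa, among the 17, had 0 there. They had at most 1 read in any library, so this does not set WT 29°C replicate 2 apart. These 17 leave out janB and bol, which had many reads in every library (up to 303 and 277) and did not single out this one. With all 19 markers, WT 29°C replicate 2 had 1044 reads, against 283 to 607 in each of the other libraries. With WT 29°C replicate 2 left out, 17 of the 32 body subunits rose at 18°C in WT, beside 23 with it. Leaving out the unnumbered or the replicate 3 library of WT at 29°C instead gave 18 and 15, so the drop was not particular to replicate 2.

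Rpt6R showed another pattern. It had 0, 1 and 1 reads in WT and 1, 0 and 5 in the hypomorph at 18°C, and 9, 3 and 3 in WT and 4, 7 and 3 in the hypomorph at 29°C. The WT temperatures did not overlap in reads, those of the hypomorph did, and the gene did not pass the filter, so no test was made.

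**Figure D5:**
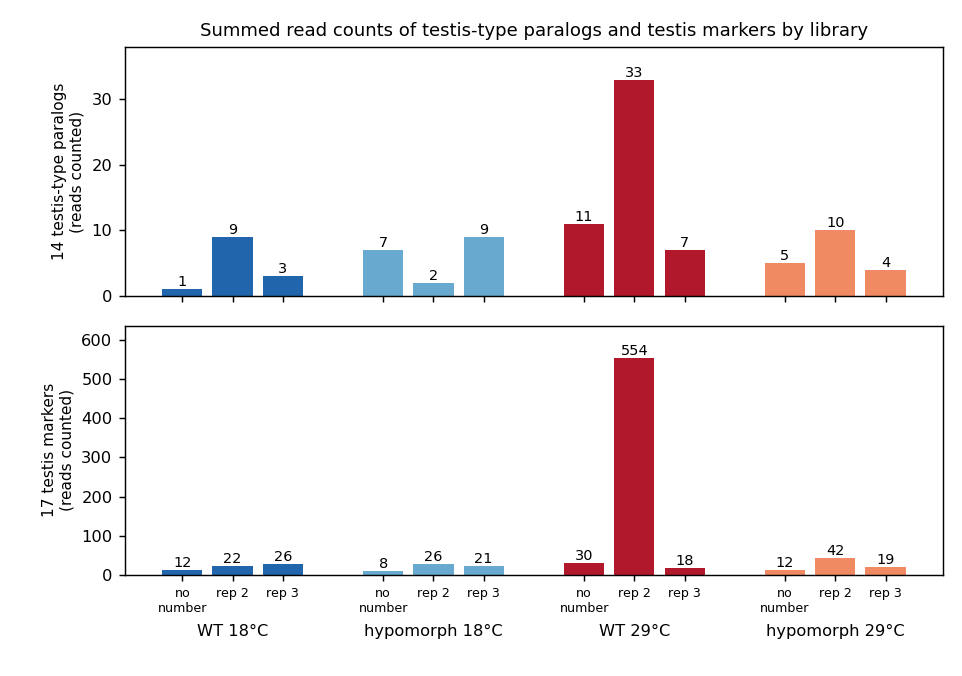
Summed reads of 14 testis-type paralogs (without Rpn13R, upper panel) and of 17 testis markers (without janB and bol, lower panel) in each of the 12 libraries. WT 29°C replicate 2 holds 33 paralog reads and 554 marker reads, against at most 11 and 42 in the other libraries.

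Genes that act with the proteasome did not move as one group with it. Of 8 assembly factors and regulators, 1 rose and 4 fell at 18°C in WT, and 2 rose and 2 fell in the hypomorph, beside 17.3% and 16.1% of all genes in WT and 16.6% and 15.6% in the hypomorph. Pomp, the chaperone that assembles the core, rose at 18°C in both strains (log2 fold change 0.37 and 0.30). REG, an activator cap that works without ubiquitin, fell at 18°C in both (−0.52 and −0.67), being at 73.2 CPM at 18°C and 105 CPM at 29°C in WT and at 66.7 and 106 CPM in the hypomorph. The regulator PI31 and its F-box partner ntc fell in WT (−0.30 and −0.74). Sem1, a small lid subunit that the name rule does not reach, had log2 fold changes of −0.06 and −0.19, neither called. The transcription factor cnc, known in flies and mammals (Nrf1) to drive proteasome genes, had 0.01 and −0.04 between temperatures, and was lower in the hypomorph at 18°C (−0.33) and at 29°C (−0.28). Its small partner maf-S fell at 18°C in both strains (−0.75 and −0.65), and Keap1, which holds cnc in check, rose in the hypomorph (0.81, at 6.65 against 3.81 CPM).

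Of 15 genes for ubiquitin, its shuttles and the segregase, 4 rose and 2 fell at 18°C in WT, beside 17.3% and 16.1% of all genes, with a median log2 fold change of 0.04. The polyubiquitin genes Ubi-p63E (0.57 and 0.58) and Ubi-p5E (0.51 and 0.77) rose in both strains. RpL40 (−0.32 and −0.37) and RpS27A (−0.39 and −0.49), which encode ubiquitin fused to a ribosomal protein, fell in both. The deubiquitinases that dock on the cap, Uch-L5 (0.57 and 0.42) and Usp14 (0.45 and 0.15), rose in WT, Uch-L5 also in the hypomorph. In the hypomorph 4 of the 15 rose and 3 fell at 18°C, beside 16.6% and 15.6% of all genes. Against WT 5 were called lower at 18°C and 3 at 29°C, beside 14.6% and 10.2% of all genes.

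As complexes of like kind, the COP9 signalosome, which resembles the lid, had none of 8 tested genes called between temperatures in WT and 1 lower in the hypomorph (CSN8, −0.45), beside 16.1% and 15.6% of all genes called lower. The 8 genes of the cytosolic chaperonin, a folding machine of stacked rings, all had log2 fold changes below 0 at 18°C in both strains. Of these 4 fell in WT (median −0.22) and 7 in the hypomorph (median −0.485), beside the same shares of all genes, and the medians were opposite in sign to the medians of the proteasome subunits. Between the strains at 18°C both complexes shifted the same way as the subunits (median −0.18). Log2 fold changes were below 0 for 8 of 8 chaperonin genes (median −0.20) and 7 of 8 COP9 genes (−0.11), beside 48.6% of all genes. Of these, 3 chaperonin genes and no COP9 gene were called lower, beside 14.6% of all genes. The difference of the temperature effects had medians of −0.22 and −0.13, beside −0.10 for the subunits. These shifts were not particular to the proteasome.

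Exons of 13 of the 32 body subunits overlap a gene on the opposite strand in the Ensembl annotation, among them Prosbeta1, Prosbeta2, Prosbeta3, Prosbeta5, Rpn7, Rpn9, Rpt2 and Rpt5. For these genes, reads of the overlapping partner cannot be told apart from their own if strand was not used.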

How the data were processed

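Total RNA of fly heads was made into 3' RNA-seq libraries. According to the study's methods and the submitters' processing notes, the authors aligned reads to the fly genome (dm3) with TopHat and counted reads per gene with ESAT. They deposited one table of whole-number read counts for 15423 rows without normalization. Versions, the strand setting and the treatment of reads that map to several places are not given in the sources used here. The reference annotations are of a later build and were used only for names, gene order and overlap, so no coordinates are printed.

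Columns were matched to the 4 groups by their names. The 4 columns without a number served only as further replicates of their group, and 4 columns of no sample described here were not used. No 2 libraries of a group agreed within sampling noise (chi-square per degree of freedom 3.29 to 9.36), so all 12 were kept.

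The deposited counts were analysed in R 4.3.3 with edgeR 4.0.16. After the filterByExpr step (minimum count 10), 9553 genes were left, and libraries were scaled by TMM. All 12 libraries entered a single quasi-likelihood fit with a mean for each group (biological coefficient of variation 12.9%), followed by Benjamini-Hochberg adjustment over the genes tested. Tables and figures were made with Python 3.11.15, pandas 2.3.3, numpy 2.4.6 and matplotlib 3.10.9. Reads are not independent molecules, so counting limits cover counting error only.

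Named in each comparison were the 3 called subunits with the largest positive and the 3 with the largest negative log2 fold change, or the 3 smallest p where fewer were called, with the catalytic subunits, Rpn11, Rpn10, Rpn13, Rpn1, the 2 subunits of highest (Prosalpha1, Prosbeta1) and lowest (Rpn6, Rpn13) mean count, and Adar. Neighbouring genes, Prosalpha4, Prosalpha6, Rpt2, Rpt5 and others named by role were chosen after their values were seen. The members, gene lists and tests were chosen with earlier results of these data known. The alternatives were DESeq2 1.42.0, other scalings and filters, fits of the compared groups only, a replicate block, leaving out each library, and the study's criterion of a log2 fold change over 1 with an unadjusted p under 0.05. Leaving out repeated rows and leaving out Prosalpha1 were added after seeing the data.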

Additional observations from a re-analysis of the deposited data

How the results depend on the processing

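The count of subunits called higher at 18°C ran from 9 to 25 in WT and from 4 to 16 in the hypomorph when each library was left out in turn, and that of subunits lower in the hypomorph at 18°C from 2 to 6, with a median log2 fold change of −0.25 to −0.049. Under the study's criterion these 3 counts were 0, 0 and 1. The subunits lower in the hypomorph at 18°C numbered 9 with DESeq2, 6 with DESeq2 size factors, 5 with upper-quartile factors and 7 where each library had to hold 10 counts of a gene, and without Prosalpha1 none was lower at 29°C. With total counts alone, 24 subunits were higher at 18°C in the hypomorph (median 0.42), the median was 0.0069 for strain at 18°C and 0.033 for the difference of the temperature effects, and the share of higher genes among all called went from 51.5% to 78.1%, from 44.4% to 77.2%, from 27.5% to 63.6% and, for strain at 29°C, from 46.3% to 56.8%. The cause of these changes was not tested, apart from the shift of all genes that this scaling makes. None of the 40 calls of a body subunit over the 5 comparisons changed sign in the 880 values under the alternatives. These 40 were picked for passing the threshold, and the alternatives reuse most of the same counts, so the kept signs are no independent support. As the counts above show, calls were lost even where signs held. At this depth 14 of the 15 testis-type paralogs could not be tested.

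Of 1220 values of single genes under an alternative, 1090 kept their direction and their side of the threshold. Uncalled log2 fold changes close to 0 changed sign as follows. With DESeq2 it was Prosbeta2 0.00032 for temperature in WT. With total counts it was for temperature in WT Prosbeta2 0.038 and Adar 0.012, for temperature in the hypomorph Prosbeta2 0.17, Rpn10 0.18 and Rpn6 0.052, for strain at 18°C Prosbeta2 0.11, Prosbeta5 0.035, Rpn11 0.078, Rpn10 0.17 and Rpn1 0.18, and for the difference of the temperature effects Prosbeta1 0.038, Prosbeta2 0.14, Rpn11 0.10, Rpn10 0.074, Rpn1 0.11 and Rpn6 0.079. Leaving out each library gave ranges across 0: for temperature in WT Prosbeta2 −0.19 to 0.070, Rpn10 −0.0066 to 0.12, Rpn6 −0.24 to 0.073 and Adar −0.081 to 0.030, for temperature in the hypomorph Prosbeta2 −0.061 to 0.043, Rpn10 −0.14 to 0.086, Rpn13 −0.028 to 0.22 and Rpn6 −0.25 to 0.018, for strain at 18°C Prosbeta2 −0.16 to 0.091, Rpn11 −0.21 to 0.015, Rpn10 −0.15 to 0.041 and Rpn1 −0.084 to 0.12, for strain at 29°C Prosbeta5 −0.013 to 0.075, Rpn11 −0.17 to 0.037, Rpn10 −0.050 to 0.12 and Rpn1 −0.13 to 0.12, and for the difference of the temperature effects Prosbeta2 −0.085 to 0.18, Rpn11 −0.15 to 0.099, Rpn10 −0.19 to 0.033, Rpn1 −0.13 to 0.12, Prosalpha1 −0.011 to 0.17 and Rpn6 −0.21 to 0.11.

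Among the counts, the replicate numbers were carried by 8 libraries. Over the genes tested, deviations of same-numbered libraries from their group means had correlations of −0.291 to 0.272 between groups. These correlations cannot decide whether the number marks a batch, and the labels do not say what it stands for. For the 31 subunits, replicate 3 had the highest median deviation at 18°C in both strains (0.41 and 0.19). At 29°C it had the lowest in both (−0.15 and −0.34). With the replicate number as a block in these 8 libraries, 3 subunits were called higher at 18°C in the hypomorph, and 3 were called in the same libraries without the block. With the block, values on the other side of 0 were for temperature in WT Prosbeta2 0.073 and Rpn6 0.077, for temperature in the hypomorph Rpn10 0.039, for strain at 18°C Rpn10 0.054, and for the difference of the temperature effects Rpn11 0.0096, Rpn10 0.026 and Prosalpha1 −0.018. Without the block they were, in the same order, 0.080, 0.076, 0.045, 0.054, 0.010, 0.029 and −0.018.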
